A study of Mus musculus with 21 samples.

Results

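VH1 genes are the members of the largest family of immunoglobulin heavy chain V genes in the C57BL/6 mouse, the family also known as J558. The members were the genes whose GENCODE symbol begins with Ighv1-, with Ighv1-55 left out by the rule, and there were 91 of them among the 56953 genes in the files and the 183 heavy chain V genes (Ighv). Of the 91, 52 were annotated as V genes and 39 as V pseudogenes. RNA of sorted peritoneal B cells was measured in 21 libraries, which were labelled B-1a WT (4), B-1a TET2-KO (4), B-1b WT (4), B-1b TET2-KO (3), B-2 WT (2) and B-2 TET2-KO (4). The mice were C57BL/6 and either wildtype (WT) or carried a global knockout of TET2, an enzyme that oxidises methylated cytosine, with deletion of exons 8 to 10, which encode its catalytic region. The deletion was in every cell of the knockout animals, so other cells of the peritoneum lacked TET2 as well as the B cells. B-1a and B-1b cells were separated in the sort by CD5, which B-1a cells carry on their surface.

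A heavy chain V gene is transcribed at a high level only after V(D)J recombination has joined it to a D and a J gene, which brings its promoter near the enhancers of the locus. Each B cell carries 1 productive joined heavy chain gene, so the spread of transcripts over the V genes of a library reflects which V genes its cells had joined. B-2 cells are known for a broad use of V genes, and B-1a cells, many of which arise before birth and renew themselves, for a narrower one with frequent use of V genes outside VH1. In bulk RNA, fewer cells that joined a V gene and less RNA of it per cell cannot be told apart.

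All 91 members lay on the minus strand of chromosome 12 (GRCm39), from chr12:114315325, the Start of Ighv1-1, to chr12:115973713, the end of Ighv1-86, over 1.658 Mb. The D and J genes lie on the side of the lower coordinates, so a member with a higher Start is farther from them. Of the other Ighv genes, 64 lay below the lowest VH1 Start and 27 between VH1 members. Gene lengths ran from 291 to 406 bases with a median of 351.

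The V exons were close in sequence. Over 1129 pairs of 50 VH1 V genes whose V exons had equal length, compared without gaps, the median identity was 85.2%, with a range of 72.1 to 100%. Bases 61 to 240 of the V exon are given for 4 members, on the minus strand of GRCm39, to show how near these genes are to each other, since reads that match more than 1 place were not counted. Ighv1-53 had the highest mean level per length of the members described here, Ighv1-52 and Ighv1-26 were the leading members of several libraries, and Ighv1-82 carried the change that passed the test in B-1a cells. They are Ighv1-53 (chr12:115122088-115122267), Ighv1-52 (chr12:115109172-115109351), Ighv1-26 (chr12:114752057-114752236) and Ighv1-82 (chr12:115916223-115916402). Capitals mark the bases that differ from Ighv1-53, which number 21 in Ighv1-52, 24 in Ighv1-26 and 23 in Ighv1-82.
Ighv1-53: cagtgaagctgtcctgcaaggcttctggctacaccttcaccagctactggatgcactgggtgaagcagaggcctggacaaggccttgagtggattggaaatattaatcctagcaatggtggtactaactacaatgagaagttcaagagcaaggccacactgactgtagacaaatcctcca
Ighv1-52: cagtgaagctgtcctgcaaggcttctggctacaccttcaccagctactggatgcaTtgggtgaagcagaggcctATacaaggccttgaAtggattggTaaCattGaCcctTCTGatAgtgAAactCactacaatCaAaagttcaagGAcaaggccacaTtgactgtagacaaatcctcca
Ighv1-26: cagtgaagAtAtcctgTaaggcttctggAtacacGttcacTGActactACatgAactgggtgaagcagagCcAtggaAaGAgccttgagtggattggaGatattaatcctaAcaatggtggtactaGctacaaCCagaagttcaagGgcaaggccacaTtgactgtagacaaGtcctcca
Ighv1-82: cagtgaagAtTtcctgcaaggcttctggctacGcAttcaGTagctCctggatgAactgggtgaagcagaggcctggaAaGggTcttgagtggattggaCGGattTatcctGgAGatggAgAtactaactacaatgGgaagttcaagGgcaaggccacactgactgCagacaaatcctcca

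Most members had stretches of their own. Ighv1-62-2 and Ighv1-71 had the same V exon, so their counts are uncertain. Ighv1-72 and Ighv1-62-3 differed at 3 bases, and Ighv1-52 and Ighv1-61 at 4. Of all members, 64 shared no run of 100 bases with another Ighv gene, and 4 shared over 50% of such runs (Ighv1-62-2, Ighv1-71, Ighv1-62-3 and Ighv1-72).

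Upstream, V gene promoters carry an octamer, ATGCAAAT, which the transcription factors Oct1 and Oct2 bind together with their cofactor OCA-B. On either strand of the window from 250 bases before to 50 bases after the gene start, 71 of 91 members (78.0%) held this octamer, against 57 of 92 other Ighv genes (62.0%) and 570 of 32851 RefSeq promoters of the same length (1.74%, GRCm38.p6). Among the members it was in 43 of 52 V genes and in 28 of 39 pseudogenes. The heptamer of the recombination signal, CACAGTG, was within 20 bases after the V segment on the gene's strand in 66 of 91 members, in 46 of 52 V genes and in 20 of 39 pseudogenes. The letters of the motifs do not overlap each other. For the same 4 members, 60 bases upstream of the gene are shown on the minus strand of GRCm39, with the octamer in capitals: Ighv1-53 at chr12:115122524-115122583, Ighv1-52 at chr12:115109608-115109667, Ighv1-26 at chr12:114752494-114752553 and Ighv1-82 at chr12:115916658-115916717.
Ighv1-53: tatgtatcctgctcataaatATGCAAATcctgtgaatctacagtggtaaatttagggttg
Ighv1-52: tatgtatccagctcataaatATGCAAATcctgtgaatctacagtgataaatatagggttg
Ighv1-26: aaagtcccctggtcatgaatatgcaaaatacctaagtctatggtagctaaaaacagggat
Ighv1-82: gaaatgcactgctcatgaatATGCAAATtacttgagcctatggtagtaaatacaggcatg

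The exact octamer was absent from Ighv1-26, which was among the 5 members with the highest mean share of VH1 counts, with or without B-1a TET2-KO 4. A match or its absence describes these letters only.

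Libraries held 9667187 to 24152518 counts (median 17425219), of which 9243 to 61893 were on Ighv genes. Counts on VH1 genes ran from 1000 (B-1a TET2-KO 4) to 23681 (B-1a WT 1). Tet2 had a level of 8.48 to 27.0 CPM (counts scaled by the library total after TMM normalization, as all CPM here) in the WT and 12.8 to 33.4 in the TET2-KO libraries, but counts over the whole gene include the exons that were kept and so do not check the deletion. Of the libraries labelled WT 1 or WT 2, which are 5 of the 10 WT libraries, several went against their subset labels. Fcer2a, which encodes CD23 of B-2 cells, was at 817 CPM in B-1a WT 1 and 597 in B-1b WT 2, where the B-2 TET2-KO libraries had 533 to 846, and it was at 24.2 CPM in B-2 WT 1. Cd5 was at 5.16 and 1.63 CPM in B-1a WT 1 and 2 and at 17.9 in B-1b WT 1, against 15.7 to 22.6 in the other B-1a and 2.07 to 4.91 in the other B-1b libraries. The use of VH1 genes moved with these markers in all 5. In B-1a WT 1, B-1b WT 2 and B-2 WT 1 this was seen against the TET2-KO libraries. In B-1b WT 1 and B-1a WT 2 it was seen against the libraries labelled WT 3 and WT 4. Over the shares of the 91 members, B-1a WT 1 correlated with the 4 B-2 TET2-KO libraries at r = 0.965 to 0.988 and B-1b WT 2 at 0.941 to 0.970, while B-2 WT 1 had a mean r of 0.523 with them and of 0.779 with the B-1b TET2-KO libraries. B-1b WT 1 had a mean r of 0.520 with the B-1a, 0.652 with the B-1b and 0.666 with the B-2 TET2-KO libraries. For B-1a WT 2 the mean r was 0.265, 0.780 and 0.802. With the libraries labelled WT 3 and WT 4, B-1b WT 1 had r = 0.910 and 0.795 in B-1a and 0.690 and 0.657 in B-1b. B-1a WT 2 had r = 0.517 and 0.563 with those of B-1a and 0.937 and 0.906 with those of B-1b. All these r are across genes within pairs of libraries, and genes are not independent replicates. The labels were kept, the main comparisons with WT are also given without these 5 libraries, and the comparisons among TET2-KO libraries do not use them.

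Transcripts of other cells were present in the sorted samples. The summed level of the macrophage marker list ran from 5371 to 33968 CPM over the libraries, with 12626 to 33968 in B-1a WT and 5860 to 32370 in B-1a TET2-KO, and it was lowest in B-2 TET2-KO 4 and B-1a TET2-KO 4. The plasma cell list ran from 130 to 391 CPM, with 224 to 391 in B-1a WT and 130 to 264 in B-1a TET2-KO. Their part in the results on VH1 genes was not tested.

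The 91 members held a large share of the heavy chain V transcripts in TET2-KO B-2 cells and a small one in most TET2-KO B-1a libraries. The VH1 share is the percent of a library's Ighv counts that fell on the 91 members. In B-2 TET2-KO cells it was 45.5, 48.4, 44.4 and 51.2% in libraries 1 to 4. In B-1a TET2-KO cells it was 31.5, 9.14, 7.35 and 7.32%, so that every B-1a library lay below every B-2 library and library 1 stood apart from the other three. In B-1b TET2-KO cells it was 27.3, 21.1 and 17.6%, also below all B-2 libraries. Counting error was small beside the spread between libraries, with a 95% Wilson interval of 50.1 to 52.2% in B-2 TET2-KO 4 and of 6.89 to 7.76% in B-1a TET2-KO 4. B-1a and B-2 TET2-KO libraries differed by −33.6 percentage points (means 13.8% ± 11.8 and 47.4% ± 3.04, SD, n = 4 each, two-sided exact permutation p = 0.0286, the smallest p for 4 against 4, adjusted p = 0.171 over 6 comparisons). B-1b and B-2 TET2-KO libraries differed by −25.4 percentage points (exact permutation p = 0.0571, the smallest for 3 against 4, adjusted p = 0.171). With 6 comparisons and these sample sizes the adjusted p of such a test cannot fall under 0.05, and none of the differences passed. B-1a and B-1b TET2-KO libraries overlapped (difference −8.17 percentage points, exact permutation p = 0.4).

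Between genotypes the shares overlapped in each subset. In B-1a WT libraries 1 to 4 the VH1 share was 49.8, 34.7, 19.9 and 28.5%, with a mean of 33.2% ± 12.6 (SD, n = 4), and TET2-KO minus WT was −19.4 percentage points (exact permutation p = 0.0857, adjusted p = 0.171). With both WT 1 and WT 2 left out it was −10.4 points (exact permutation p = 0.4). In B-1b WT libraries it was 16.9, 47.7, 32.4 and 29.3%, with a mean of 31.5% ± 12.7 (SD, n = 4) and TET2-KO minus WT was −9.55 points (exact permutation p = 0.286), or −8.83 points without WT 1 and WT 2 (exact permutation p = 0.2). In B-2 WT libraries 1 and 4 it was 19.4 and 50.7%, far apart from each other, and the difference of 12.3 points turned to −3.32 points when B-2 WT 1 was left out.

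Ighv1-55, which carries a VH1 symbol but is left out by the rule used here, weighed on the B-1a value. It held 23.6, 1.62, 36.4 and 30.5% of Ighv counts in B-1a TET2-KO libraries 1 to 4 and 1.88 to 8.37% in the other 17 libraries. With Ighv1-55 counted as a member, the share was 36.9% in B-1a TET2-KO and 37.2% in B-1a WT (exact permutation p = 1.00), and the B-1a TET2-KO libraries differed from B-2 by −14.8 points (exact permutation p = 0.143). With Ighv1-55 left out of the members and of the Ighv total, the B-1a difference between genotypes was −16.3 points (exact permutation p = 0.171). The low share in B-1a TET2-KO cells thus concerns the 91 members without Ighv1-55.

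**Figure D1:**
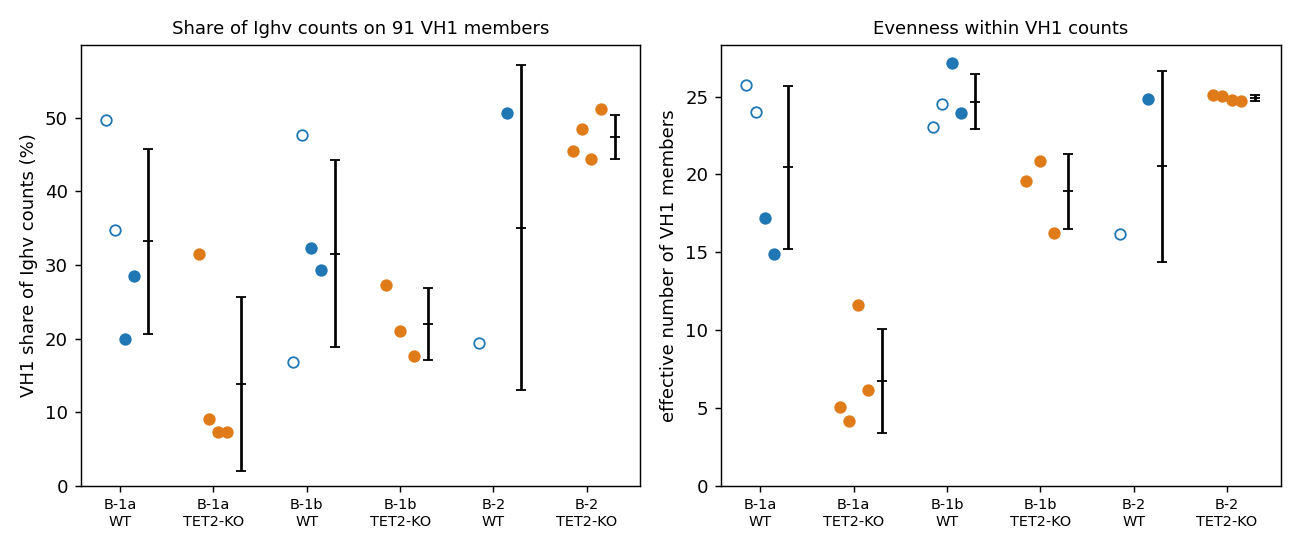
VH1 share of Ighv counts (percent) and effective number of VH1 genes in each of the 21 libraries, by subset and genotype, with black bars for the mean ± SD and open circles for libraries labelled WT 1 or WT 2. The 4 B-1a TET2-KO libraries had effective numbers of 4.16 to 11.6, below all other libraries, and the B-2 TET2-KO libraries sat together at 24.7 to 25.1.

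The spread of VH1 counts over the members was narrow in TET2-KO B-1a cells. It was measured by the effective number of VH1 genes, the inverse of the sum of squared shares, which equals the number of genes if all are used equally. It was 5.07, 4.16, 11.6 and 6.13 in B-1a TET2-KO libraries 1 to 4 and 25.8, 24.0, 17.2 and 14.9 in B-1a WT libraries 1 to 4. All 4 TET2-KO libraries lay below all 4 WT libraries (6.74 ± 3.34 against 20.5 ± 5.23, SD, n = 4 each, exact permutation p = 0.0286, the smallest possible, adjusted p = 0.0686). Without WT 1 and WT 2 the difference was −9.32 and the groups still did not overlap (exact permutation p = 0.133, the smallest for 4 against 2). With Ighv1-55 as a member the effective number was 3.02 in TET2-KO and 18.8 in WT B-1a cells (exact permutation p = 0.0286), so this difference did not need its removal.

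B-1b and B-2 cells used more members. The effective number was 19.6, 20.9 and 16.2 in B-1b TET2-KO and 23.0, 24.5, 27.1 and 24.0 in B-1b WT libraries, which did not overlap (difference −5.77, exact permutation p = 0.0571, the smallest for 3 against 4, adjusted p = 0.0686). Without WT 1 and WT 2 the B-1b difference was −6.65 (exact permutation p = 0.2, the smallest possible). In B-2 cells it was 25.1, 25.1, 24.8 and 24.7 in TET2-KO and 16.2 and 24.9 in WT libraries 1 and 4, a difference of 4.41 that fell to 0.066 without WT 1. Among TET2-KO libraries, B-1a cells differed by −18.2 from B-2 cells (exact permutation p = 0.0286) and by −12.2 from B-1b cells (exact permutation p = 0.0571), and the difference of B-1b from B-2 cells was −6.02 (exact permutation p = 0.0571), each without overlap and each with an adjusted p of 0.0686. None of these adjusted p passed 0.05.

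The same order was seen in how few members held most counts. In B-1a TET2-KO libraries 2, 2, 4 and 3 members held 50% of the VH1 counts, against 6 to 10 in B-1a WT (8 and 6 without WT 1 and WT 2), 6 to 8 in B-1b TET2-KO, 9 to 11 in B-1b WT (11 and 9) and 9 or 10 in B-2 TET2-KO libraries. B-1a TET2-KO 4 had the fewest VH1 counts, 1000, and 30 members with at least 1 count. Drawn down to 1000 VH1 counts, B-1a TET2-KO libraries 1 to 3 were expected to show 42.8, 44.3 and 48.0 members, and the libraries of other groups 47.1 to 55.1.

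**Figure D2:**
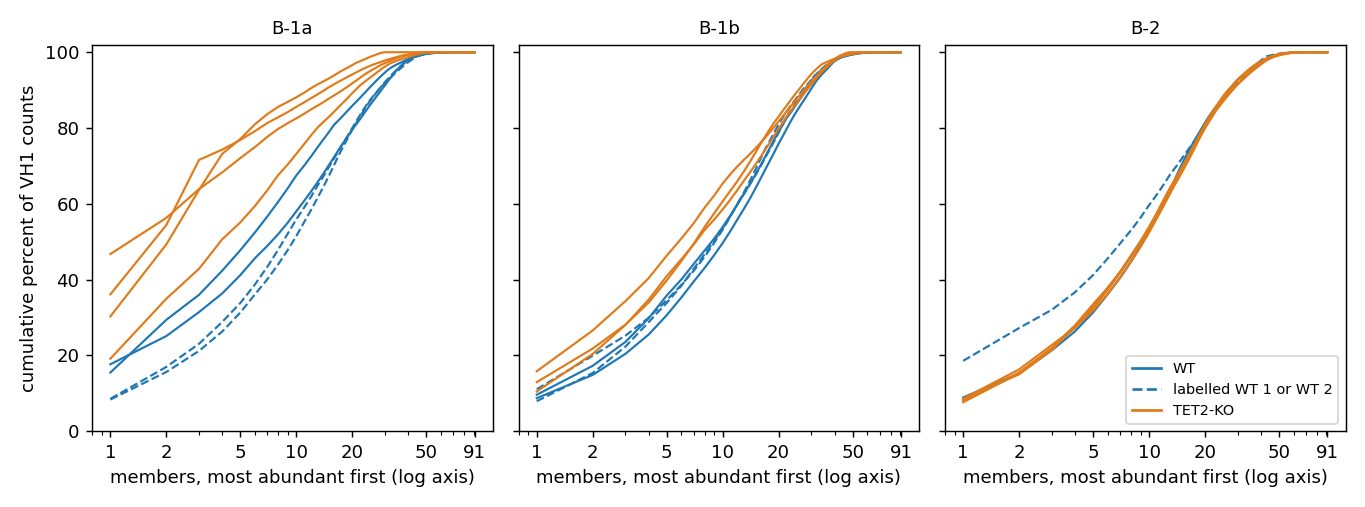
Cumulative percent of VH1 counts against the number of members (log axis), ordered from the most to the least counted in each library, in a panel per subset, with dashed lines for libraries labelled WT 1 or WT 2. The B-1a TET2-KO lines start highest and reach 50% with 2 to 4 members, while the B-2 TET2-KO lines need 9 or 10.

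Over all libraries the 10 members with the highest mean share were Ighv1-52 (8.46% of VH1 counts), Ighv1-53 (6.84%), Ighv1-9 (6.54%), Ighv1-26 (5.90%), Ighv1-64 (5.41%), Ighv1-72 (4.82%), Ighv1-78 (4.46%), Ighv1-15 (3.78%), Ighv1-82 (3.57%) and Ighv1-19 (3.12%). Together these V genes, each of which encodes the V segment of a heavy chain, held 47.1 to 71.3% of a library's VH1 counts. Per length, Ighv1-53 led with a mean of 121 CPM per kb, followed by Ighv1-52 with 117 and Ighv1-9 with 113. The mean of Ighv1-15 rests on B-1a TET2-KO 4, and without that library it was 2.45%, the 13th highest. At the other end, 7 members had no counts in any library and 17 had 1 to 9 counts in all. The 39 pseudogenes together held 1.57% of VH1 counts.

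Which member led differed between the B-1a TET2-KO libraries. Ighv1-9 held 36.1% of VH1 counts in library 1, Ighv1-52 46.7% in library 2 and 19.1% in library 3, and Ighv1-15 30.3% in library 4. Ighv1-52 held only 0.70% in library 4, and Ighv1-15 only 0.621 to 2.35% in libraries 1 to 3. Other members over 5% included Ighv1-36 in library 1 (17.2%), Ighv1-54 in library 3 (15.8%) and Ighv1-63 in libraries 2, 3 and 4 (9.55, 7.79 and 19.0%), and these 3 were chosen after their values were seen. Libraries 1, 2 and 4 were thus each led by a different member. The profiles of the 91 shares correlated at r = 0.124 to 0.737 between pairs of B-1a TET2-KO libraries, at 0.736 to 0.824 in B-1b TET2-KO and at 0.966 to 0.989 in B-2 TET2-KO, as a description across genes. In B-2 TET2-KO libraries the leading member held 8.09% (Ighv1-53), 7.65% (Ighv1-26 and Ighv1-64), 8.59% (Ighv1-26) and 8.46% (Ighv1-64).

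Ighv1-52 held a large share in B-1a WT 3 and 4 and in 3 of 4 B-1a TET2-KO libraries. Its share of VH1 counts was 3.62, 2.00, 17.7 and 15.5% in B-1a WT libraries 1 to 4 and 18.3, 46.7, 19.1 and 0.70% in B-1a TET2-KO. In B-1b WT 1, whose Cd5 level was that of B-1a libraries, it was 11.1%, against 1.70 to 3.27% in the other B-1b WT libraries. In B-2 TET2-KO it was 3.15 to 4.53%. Leaving aside the libraries labelled WT 1 or WT 2, it was 15.5 to 46.7% in 5 of 6 B-1a libraries and at most 8.87% in every other library.

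Ighv1-78 and Ighv1-11 held more of the VH1 counts in every B-1b than in every B-2 TET2-KO library. Ighv1-78 held 5.84, 7.66 and 15.8% of VH1 counts in B-1b TET2-KO, 1.46 to 4.71% in B-1b WT and 1.21 to 1.70% in B-2 TET2-KO, and it held 18.6% in B-2 WT 1. Ighv1-11 held 3.58, 2.50 and 5.91% in B-1b TET2-KO and 0.264 to 0.437% in B-2 TET2-KO. Among WT libraries Ighv1-11 held 8.43% in B-1a WT 2 and 0.169 to 3.54% elsewhere.

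**Figure D3:**
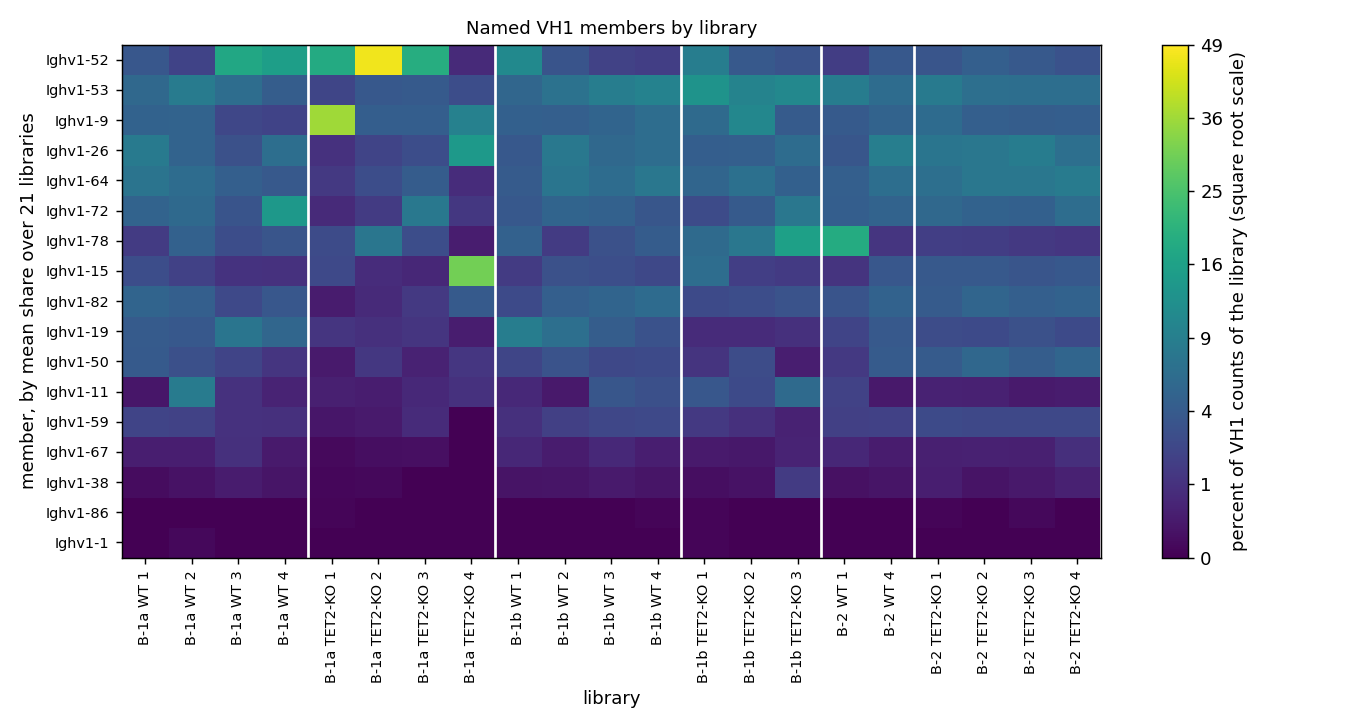
Percent of VH1 counts (colour, on a square root scale) held by 17 named members (rows, by mean share) in each of the 21 libraries (columns, by subset and genotype). The B-1a TET2-KO libraries show a few bright cells in different rows, for example Ighv1-52 at 46.7% in library 2 and Ighv1-15 at 30.3% in library 4, while the 4 B-2 TET2-KO libraries look alike.

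Levels were then tested gene by gene (edgeR, quasi-likelihood), and p-values were adjusted over all genes tested by the Benjamini-Hochberg method. Of the 91 members, 45 passed the filter on low counts in all 7 comparisons, 56 in at least 1 and 35 in none. Counts of members below refer to those tested, and the filter kept a gene that was high in either group.

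In B-1a cells nearly all tested members had lower levels in TET2-KO, and 1 passed the test. Of 47 members tested, 42 had a negative and 5 a positive log2 fold change, with a median of −2.99, against a median of −2.24 over 48 other Ighv genes (41 negative) and 0.02 over all genes. These values include WT 1 and WT 2, whose summed VH1 levels of 1154 and 974 CPM were above those of WT 3 and WT 4. Over omissions of 1 library the median of the members ran from −3.42 to −2.56. Ighv1-82 was at 59.1, 43.7, 11.9 and 23.2 CPM in WT libraries 1 to 4 and at 2.06, 1.84, 1.88 and 2.18 CPM in TET2-KO. All 4 TET2-KO libraries were below all WT libraries and close to each other (log2 fold change −4.05 ± 0.46, SE, edgeR adjusted p = 0.0298). It was the only member called lower, where 0.0431% of all genes tested were. Ighv1-82 was at 15.9 to 52.1 CPM in B-1b WT, 11.1 to 14.1 in B-1b TET2-KO and 17.0 to 33.3 in B-2 TET2-KO libraries, so the level in B-1a TET2-KO was below that of every other library. With WT 1 and WT 2 left out its log2 fold change was −3.12 with an edgeR adjusted p of 0.0520, and 0 members were called, with 23 at an unadjusted p under 0.05, against 3.16% of genes. The call was also lost when any 1 of B-1a WT 2, B-1a WT 4 or the 4 TET2-KO libraries was left out, with log2 fold changes of −4.34 to −3.68 over all 8 omissions.

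Many more members were lower without passing the adjustment. An unadjusted p under 0.05 was reached by 33 of 47 members, all lower, against 7.85% of all genes in either direction. In 26 members all TET2-KO libraries were below all WT libraries, against 3.48% of all genes tested, and without WT 1 and WT 2 in 29 members, against 7.77%. Of the other Ighv genes, 24 of 48 were lower without overlap, so the pattern was not restricted to VH1. DESeq2 called 22 members lower in B-1a TET2-KO, against 0.802% of the genes it tested. Ighv1-26 had a log2 fold change of −2.99 (edgeR adjusted p = 0.0888), Ighv1-53 of −2.67 (0.193) and Ighv1-64 of −3.03 (0.232), and −2.21, −1.90 and −2.07 without WT 1 and WT 2, while the members that led single TET2-KO libraries did not share this. Ighv1-52 was at 0.15 ± 1.05 (SE), Ighv1-9 at 1.14 ± 1.19 and Ighv1-15 at −0.70. Ighv1-9 was at 253, 11.4, 6.08 and 5.32 CPM in TET2-KO libraries 1 to 4 and at −2.02 without library 1, Ighv1-52 was at −0.34 without library 1 and −0.27 without library 2, and Ighv1-15 was at −1.23 without library 4. Without WT 1 and WT 2, Ighv1-52 was at −0.46 and Ighv1-15 at 0.61.

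The summed VH1 level moved with the library. It was 1154, 974, 498 and 653 CPM in B-1a WT libraries 1 to 4 and 700, 258, 137 and 56.0 CPM in TET2-KO, which overlap through TET2-KO 1 (difference in mean log2 level −2.01, exact permutation p = 0.0857, adjusted p = 0.229, and −1.56 without WT 1 and WT 2). The level of all Ighv genes was 2291 to 2803 CPM in B-1a WT and 2223, 2822, 1865 and 766 CPM in TET2-KO. TET2-KO 4 was low in all heavy chain V transcripts, and TET2-KO 2 only in those of the 91 members. TET2-KO 3 was below every B-1a WT library in both the 91 members and the total over Ighv genes. Ighv1-55, which is not among the 91 members, held 36.4% of Ighv counts in TET2-KO 3 and 1.62% in TET2-KO 2, so it made up much of that total in TET2-KO 3. With Ighv1-55 as a member the B-1a difference was −0.71.

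**Figure D4:**
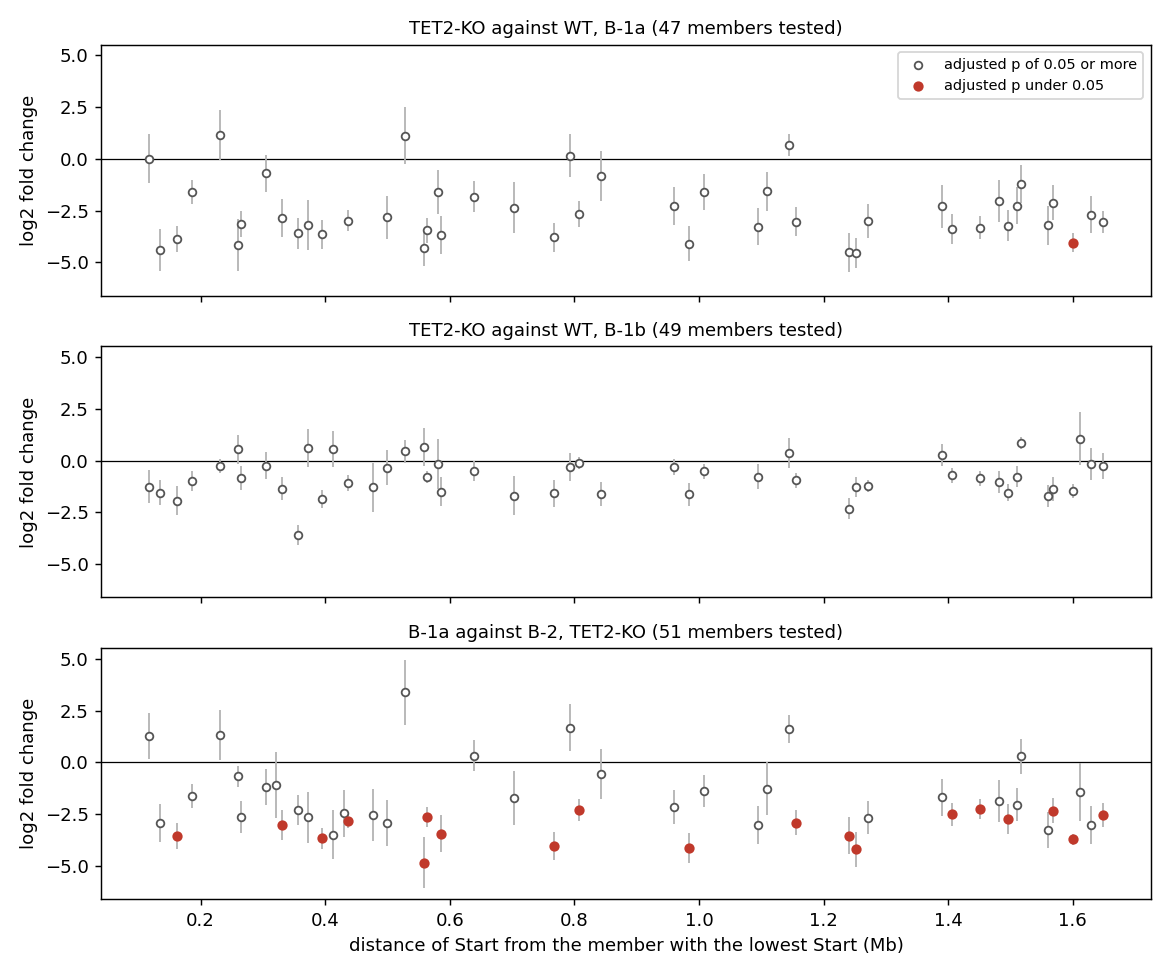
Log2 fold changes of the tested VH1 members, with grey lines for ± 1 SE, against the distance of their Start from the lowest Start (Mb), for TET2-KO against WT in B-1a and in B-1b cells and for B-1a against B-2 TET2-KO cells. Filled points have an adjusted p under 0.05, and the members lie mostly below 0, with medians of −2.99, −0.83 and −2.51.

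In B-1b cells the differences were smaller and none was called. Of 49 members tested, 40 had a negative and 9 a positive log2 fold change, with a median of −0.83 against −0.23 over the other Ighv genes. None of 14368 genes was called (0.0%), 20 members had an unadjusted p under 0.05 (19 of them lower), against 5.48% of genes, and DESeq2 called 6 members lower, against 0.229% of the genes it tested. In 12 members all TET2-KO libraries were below all WT libraries, against 3.83% of genes, and without WT 1 and WT 2 in 21 members, against 10.8%. The median was then −0.60. Ighv1-82 had a log2 fold change of −1.45 (edgeR adjusted p = 0.838). The summed VH1 level was 648, 1145, 679 and 651 CPM in B-1b WT and 579, 468 and 347 CPM in TET2-KO, all lower than WT (difference in mean log2 level −0.73, exact permutation p = 0.0571, adjusted p = 0.229, and −0.55 without WT 1 and WT 2).

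In B-2 cells no member was called (0.0% of 19786 genes, 3 members and 8.86% of genes at an unadjusted p under 0.05, 0 members by DESeq2). Log2 fold changes were negative in 34 of 51 members and positive in 17, and their median was −0.13 against 0.18 over all genes and −0.57 over the other Ighv genes. The summed VH1 level was 625 and 722 CPM in WT and 603, 617, 744 and 352 CPM in TET2-KO, which overlap. Without B-2 WT 1 the median was −0.29 and the difference in mean log2 summed level −0.37 in place of −0.27, with a single WT library left and the spread taken from TET2-KO alone.

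The effect of TET2-KO was compared between B-1a and B-1b cells as an interaction. Of 54 members tested, 47 had a more negative log2 fold change in B-1a cells, with a median difference of −1.96, and −1.34 without WT 1 and WT 2. None passed (0.0% of 15972 genes, 19 members and 1.57% of genes at an unadjusted p under 0.05, 0 members by DESeq2), so a different response of B-1a and B-1b cells was not shown for any member.

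Among TET2-KO libraries, B-1a cells had 19 VH1 members lower than B-2 cells and none higher, against 2.57% of all genes called lower. Of 51 members tested, 44 had a negative log2 fold change, with a median of −2.51 against −1.49 over the other Ighv genes, of which 42 of 53 had a negative value and 9 were called lower. In 29 members the libraries did not overlap, against 11.2% of genes. Ighv1-82 was at 24.4, 32.2, 33.3 and 17.0 CPM in the B-2 libraries and 1.84 to 2.18 CPM in the B-1a libraries, and fell by 3.71 on the log2 scale (SE 0.27, edgeR adjusted p = 1.18e-06). Ighv1-50 was at 24.3, 33.5, 31.5 and 18.6 CPM in B-2 and at 1.81, 3.25, 0.625 and 0.672 CPM in B-1a libraries (log2 fold change −4.05 ± 0.67, SE, edgeR adjusted p = 0.00283). Both had every B-1a library below every B-2 library.

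Further members lower in B-1a than in B-2 TET2-KO cells were Ighv1-59 (log2 fold change −4.14, edgeR adjusted p = 0.00289), the low-level Ighv1-67 (−4.20, 0.00802), Ighv1-26 (−2.85, 3.52e-05), Ighv1-64 (−2.91, 0.0169) and Ighv1-53 (−2.31, 0.0269). The pseudogene Ighv1-38 had 3 counts in the 4 B-1a and 98 in the 4 B-2 libraries, a ratio of CPM of 35.8 with a 95% counting interval of 11.9 to 176 (edgeR adjusted p = 0.0281). Its call was lost when any 1 of B-1a TET2-KO 2, 3 or 4 or B-2 TET2-KO 1 was left out. Ighv1-52 and Ighv1-9 had positive values that did not pass (1.67, adjusted p = 0.406, and 1.34, adjusted p = 0.541, edgeR). The positive value of Ighv1-9 came from B-1a TET2-KO 1, with 253 CPM against 5.32 to 11.4 in the other three, and without that library it was −1.88 (edgeR adjusted p = 0.0157). The call of Ighv1-53 was lost when any 1 of B-1a TET2-KO 2 or 3, B-1b TET2-KO 1 or 2 or B-2 TET2-KO 1 or 2 was left out, with an edgeR adjusted p of up to 0.0815. That of Ighv1-64 was lost without B-1a TET2-KO 3 (0.0526) or B-1b TET2-KO 2 (0.0516). The count of 19 fell to 11 without B-1a TET2-KO 3, and DESeq2 called 32, all lower, against 14.6% of the genes it tested in either direction.

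Between B-1b and B-2 TET2-KO cells 1 member passed the test. An unadjusted p under 0.05 (edgeR) was reached by 12 of 51 members, 8 of them lower in B-1b, and by 3629 of 18555 genes. Ighv1-11 was at 20.7, 11.7 and 20.5 CPM in B-1b and at 2.64, 2.61, 1.96 and 0.969 CPM in B-2 libraries, and rose by 3.14 on the log2 scale (SE 0.53, edgeR adjusted p = 0.00434). It was the only member called higher, where 1.52% of genes were, and none was called lower, where 0.631% of genes were. Log2 fold changes were negative in 34 of 51 members and positive in 17, and their median was −0.47, while the other Ighv genes had a median of 0.70.

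Against B-1b cells, B-1a TET2-KO cells had 3 lower members, where 0.194% of genes were called lower. These were Ighv1-11, which fell by 3.82 on the log2 scale (SE 0.55, edgeR adjusted p = 0.00834), Ighv1-82, which fell by 2.66 (SE 0.27, 0.00112), and Ighv1-26, which fell by 1.89 (SE 0.31, 0.0218). Ighv1-26 was at 7.01, 5.34, 3.81 and 8.07 CPM in B-1a and at 25.3, 20.9 and 21.1 CPM in B-1b libraries, with no overlap. Of 51 members, 45 were lower, with a median of −2.02, close to that of the other Ighv genes at −2.18. The count of 3 became 7 without B-1a TET2-KO 1 and 6 without B-1a TET2-KO 4. The call of Ighv1-26 was lost when any 1 of B-1a TET2-KO 2 or 3 or B-1b TET2-KO 1 was left out. These 3 comparisons share TET2-KO libraries.

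The position in the locus went with levels only weakly. Across the 91 members, Spearman's rho of Start with the mean CPM of a group was 0.21 to 0.24 in all 6 groups, and 0.12 to 0.16 over the 52 V genes. The points share libraries and sequence, so this is a description. Ighv1-1, a pseudogene at the lowest Start, had 5 counts over all libraries, and Ighv1-86, a pseudogene at the highest, had 7.

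The part of VH1 counts on the members farther from the D genes varied little in B-1b and B-2 TET2-KO cells and widely in B-1a TET2-KO cells. The distal share, the percent of VH1 counts on the 45 members above the median Start of 114909570, was 62.3, 64.6, 63.8 and 64.6% in B-2 TET2-KO, 64.8, 65.9 and 66.1% in B-1b TET2-KO and 61.0 to 64.4% in B-1b WT libraries. It was 73.7% in B-2 WT 1, above all of these. In B-1a TET2-KO it was 35.4, 85.2, 83.3 and 34.2%, against 59.3 to 71.2% in B-1a WT, so these 4 libraries lay on both sides of all others. No difference between groups passed (B-1a −6.06 percentage points, exact permutation p = 0.629, B-1b 3.08 points, exact permutation p = 0.0571, adjusted p = 0.171, and 2.93 without WT 1 and WT 2), and the B-1a difference turned positive without TET2-KO 1 (1.98) or TET2-KO 4 (2.38), and was −11.0 without WT 1 and WT 2. The high and low values followed the leading members. Ighv1-9 and Ighv1-15, which led libraries 1 and 4, are on the side of the family nearer to the D genes, and Ighv1-52, which led libraries 2 and 3, lies in the distal part. The 30 members farthest from the D genes held a mean of 27.7% of VH1 counts in B-1a TET2-KO (12.5 to 37.6%) and 42.8% in B-2 TET2-KO (40.7 to 45.0%).

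**Figure D5:**
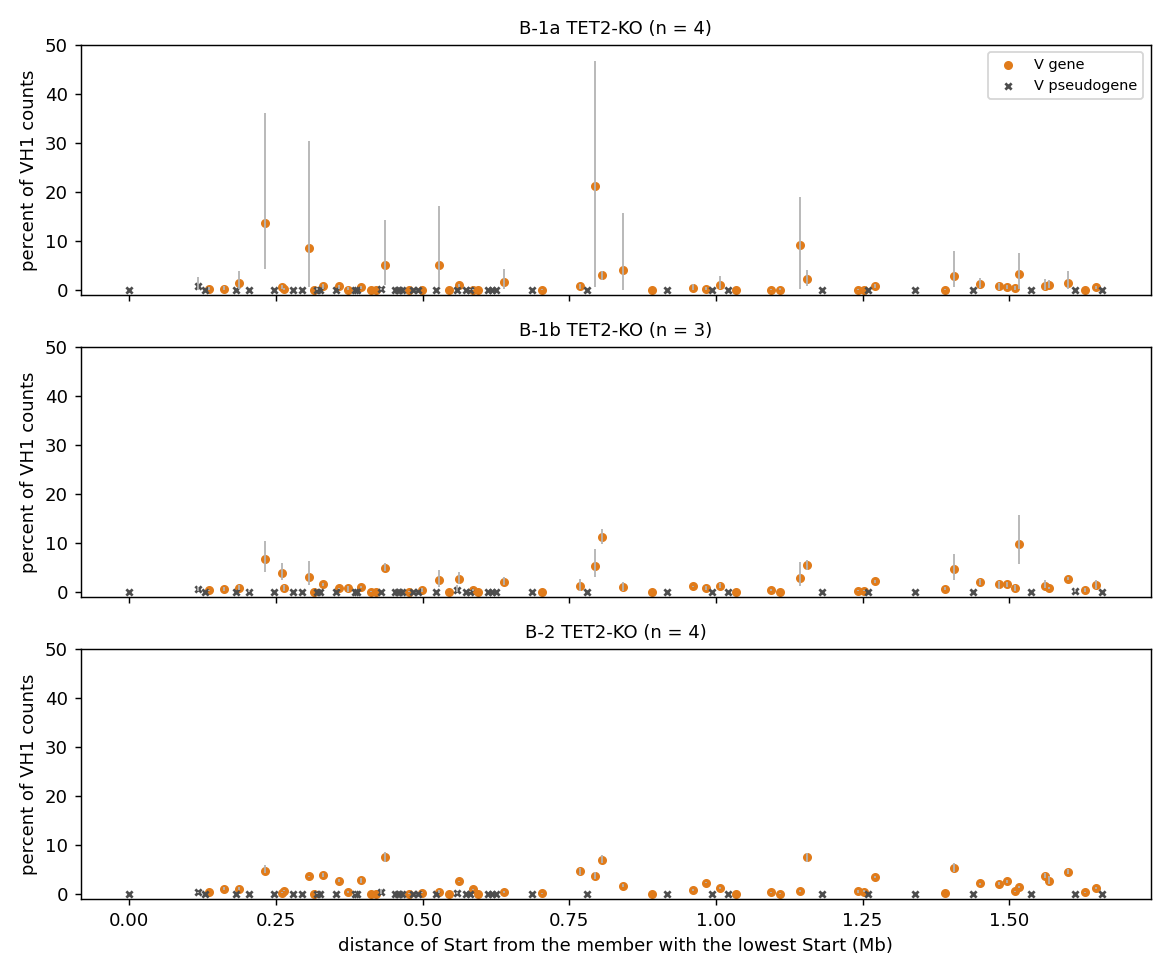
Mean percent of VH1 counts on each of the 91 members against the distance of its Start from the lowest Start (Mb), for the 3 TET2-KO groups, with grey lines from the lowest to the highest library, filled circles for V genes and crosses for pseudogenes. High and low members alternate along the whole 1.658 Mb in each group, and the B-1a panel stands out by single members with wide ranges, such as Ighv1-52 at 0.70 to 46.7%.

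Of the other genes of B cell receptor expression and antibody secretion, a list of 32, none was called between TET2-KO and WT in any subset, between B-1a and B-1b TET2-KO cells, or in the interaction (29 or 30 tested). Compared with B-2 TET2-KO cells, B-1a TET2-KO cells had higher Jchain, which joins IgM pentamers (log2 fold change 2.25, edgeR adjusted p = 0.0226), Prdm1, the regulator of plasma cell differentiation (1.93, 0.0209), and Mzb1, a chaperone of IgM assembly (1.55, 0.00117). They had lower Ighd, the IgD heavy chain (−2.61, 2.71e-06), and Irf8 (−1.43, 0.000752). B-1b TET2-KO cells had higher Jchain (3.88, 0.00188) and Mzb1 (1.49, 0.00534) and lower Ighd (−2.26, 7.87e-05) than B-2. Other secretion genes of the list did not share the rise and were not called. Sdc1 was at 0 to 2.63 CPM in B-1a, 0 to 2.87 in B-1b and 4.34 to 6.07 in B-2 TET2-KO libraries. Xbp1 had means of 159, 217 and 147 CPM in these groups. Pou2f2 and Pou2af1, which encode Oct2 and OCA-B, the factors of the octamer shown above, were not called in any comparison.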

How the data were processed

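RNA of 3 sorted subsets of peritoneal B cells was measured in 21 libraries, grouped by their deposited labels. The files hold raw fragment counts per gene, which the authors made with fastp, STAR on GRCm39 and featureCounts 1.6.1 on GENCODE M32, unstranded, without fragments that matched several places or overlapped several genes. The paper and the labels describe the library preparation differently. Counts were tested in R 4.3.3 with edgeR 4.0.16 and limma 3.58.1 (TMM, filterByExpr by group, robust quasi-likelihood fits), with adjustment over all genes tested and a threshold of 0.05, and DESeq2 1.42.0 was the alternative. TET2-KO was compared with WT in a fit per subset, the subsets in a fit of the TET2-KO libraries, and the interaction in a fit of all B-1 libraries. CPM values, the summed level included, use library totals multiplied by TMM factors over all 21 libraries. Shares and effective numbers were compared by two-sided exact permutation tests of the difference in means (Python 3.11.15, SciPy 1.17.1), adjusted over 6 comparisons per measure. The scripts were tested on simulated data.

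Named members were the 10 with the highest mean share, each member that led a library, per comparison at most 5 rising and 5 falling of the largest called changes without overlap, and the members at both ends of the locus. Genes of the list of 32 were named where called. The members, lists and motifs were chosen with earlier results of these data known, and the 4 members shown by sequence after their values were seen. Alternatives were the model, the filter, the normalization, counts per length, thinned counts, a replicate block, and the omission of each library, of the libraries labelled WT 1 and WT 2, or of the exclusion of Ighv1-55. The paper counts the B-1 libraries as mice, and for B-2 cells the p-values measure the spread between libraries only. Intervals cover counting error only, since reads carried no molecular identifiers.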

Additional observations from a re-analysis of the deposited data

Results flagged for a closer look

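Several flagged values were in B-1a TET2-KO libraries, where 1 library stood far from the others. These were the VH1 share of Ighv counts in library 1 (31.5%) and the percent of VH1 counts on Ighv1-9 in library 1 (36.1%), Ighv1-72 in library 3 (7.91%), and Ighv1-15 (30.3%) and Ighv1-26 (14.4%) in library 4. Ighv1-86 was also set apart in library 1 by its 0.00894%, since it had no count in the others.

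Among WT libraries, B-1a WT 2 stood apart in Ighv1-11 (8.43%) and Ighv1-1 (0.0216%), B-1a WT 3 in Ighv1-67 (0.920%), B-1b WT 1 in Ighv1-52 (11.1%), B-1b WT 2 in the summed VH1 level (10.16 on the log2 CPM scale) and B-1b WT 4 in Ighv1-86 (0.00804%). Of these, B-1a WT 2, B-1b WT 1 and B-1b WT 2 are among the 5 libraries labelled WT 1 or WT 2.

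B-2 TET2-KO libraries were so close to each other that small gaps were far by comparison: Ighv1-53 (8.09%) and Ighv1-9 (5.99%) in library 1, Ighv1-15 (3.45%) in library 3 and Ighv1-67 (0.867%) in library 4. In all, 16 of 84 groups of values had such a library. A chance rate of about 1 in 20 holds only for independent values, and these groups share libraries. In some of them only the flagged library had any count, so the number does not show an excess over chance.

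The share of VH1 counts on Ighv1-53 went in opposite directions in B-1a and B-1b cells. It was 2.15 to 3.98% in B-1a TET2-KO, below the 4.24 to 8.55% of all WT libraries (difference −3.03 percentage points), and 9.89 to 13.0% in B-1b TET2-KO, above the 5.29 to 9.63% of all WT libraries (3.55 points). The difference between the subsets was not tested.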

How the results depend on the processing

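Of 704 recomputed values for 55 results, 628 kept their direction and their side of the threshold, 15 kept the direction and lost the call, 41 moved and 20 reversed. Where no cause is given, it was not tested. Where no share of all genes called is given above for a setting, its count of called members does not show whether VH1 stood out. The count of called members depended most on the settings. It was 1 in B-1a TET2-KO against WT and became 22 with DESeq2, 21 with no filter, 10 with the replicate block and 0 with WT 1 and WT 2 left out. In B-1b it was 0 and became 6 with DESeq2 and 13 with no filter, and in B-2 1 with no filter. Against B-2, B-1a TET2-KO gave 32 with DESeq2 in place of 19, and B-1b gave 7 with DESeq2, 7 with no filter, 2 with RLE size factors and 5 with the block in place of 1. B-1a against B-1b gave 17 with DESeq2, 12 with no filter and 5 with the block in place of 3, and the interaction 18 with no filter in place of 0. When single libraries were omitted the counts were 0 to 2 (B-1a), 0 to 3 (B-2), 11 to 25 (B-1a against B-2), 1 to 3 (B-1b against B-2) and 2 to 7 (B-1a against B-1b). The 3 in B-2 came without WT 4, which leaves WT 1 alone, assumed to vary like the other group.

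Without WT 1 and WT 2 the B-2 difference in VH1 share became −3.32 and in distal share 3.88. With Ighv1-55 as a member, the distal share became 14.2 (B-1a), 16.9 (B-1a against B-2) and 12.5 (B-1a against B-1b), the VH1 share of B-1a against B-1b 10.7 and its summed level 0.0015. The distal share of B-1b against B-2 was −0.54 for the 30 members of highest Start, and the B-2 summed level 0.059 without TMM. Over single omissions the B-2 difference ran from −3.32 to 27.9 in VH1 share, from −9.84 to 3.88 in distal share and from −0.29 to 0.21 in median log2 fold change. The distal share ran from −14.6 to 2.38 in B-1a, from −12.9 to 4.13 in B-1a against B-2 and from −14.6 to 2.37 in B-1a against B-1b.

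Same-numbered TET2-KO and WT libraries correlated at −0.14 to 0.05 in B-1a and −0.12 to 0.16 in B-1b. They come from different mice, so these values cannot show whether subsets with the same number share a mouse. In no comparison of 3 or more pairs did every pair exceed 0.1. In B-1a against B-1b TET2-KO every pair of the same number was the best match (r = 0.100, 0.073 and 0.118). This is a hint that they may share a mouse, and the main tests between subsets treated the libraries as unpaired. The replicate block also gave 2.37 for the distal share of B-1a against B-1b, which drops B-1a TET2-KO 4. B-1a TET2-KO 4 had the fewest VH1 counts, 1000, so shares of its VH1 counts are the least precise.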
